A study of Mus musculus with 4 samples.

Results

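The nuclear genes of oxidative phosphorylation were examined by symbol in RNA-seq values of sorted mouse bone marrow cells. All symbols that begin with Ndufa, Ndufb, Ndufc, Ndufs or Ndufv, Sdha to Sdhd, Uqcr, Cox4 to Cox8 or Atp5 were taken. They gave 87 genes of 12417 symbols of single genes with a value in at least 1 library, and 81 of the 87 had a row in all 4 libraries. By their symbols 38 belong to complex I, 4 to complex II, 8 to complex III, 15 to complex IV and 15 to complex V. The remaining 7 genes match the letters but are not subunits, namely the complex I assembly factors Ndufaf1 to Ndufaf4, the genes Atp5s and Atp5sl, and Cox4nb, which RefSeq lists as Emc8, a gene of an endoplasmic reticulum membrane complex.

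Oxidative phosphorylation takes place in the inner mitochondrial membrane. Complexes I and II pass electrons from NADH and succinate to ubiquinone, complex III passes them on to cytochrome c, complex IV reduces oxygen, and complex V uses the proton gradient built on the way to make ATP. Most subunits are encoded in the nucleus and a few in mitochondrial DNA. Hematopoietic stem cells are known to rely less on this route than their dividing descendants, and electrons that leak from complexes I and III are a known source of reactive oxygen species.

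There were 4 libraries, 1 for WT and 1 for GRK6-/- mice in each of 2 populations, HSC (hematopoietic stem cells) and CLP (common lymphoid progenitors). Where 4 values of a gene follow each other, the HSC pair comes first and the CLP pair after it, with WT before GRK6-/- in each pair. Both populations were sorted by the labels from C57BL/6 bone marrow as Lin-c-kit+sca-1+, with Il-7Ra+ as a further mark of the CLP, and no age is given in them. By the study's account, GRK6-/- mice carry a deletion of exons shared by the splice forms of the kinase gene, and the WT mice were their littermates. Each library was a pool from 13 to 15 cells taken from 3 to 4 mice, amplified cell by cell in 20 and then 10 cycles of PCR. There were no replicates, so no value below has an error between mice and no difference was tested, and fewer cells of a type and less RNA per cell cannot be told apart. Values are FPKM (fragments scaled to transcript length and to the number of mapped fragments, as deposited), log2 ratios are of FPKM + 1, which understates the differences of low genes, and 2-fold means a log2 ratio of at least 1 in size. The lowest values fell on steps that put the depth at about 3000000, 3900000, 4400000 and 2800000 fragments in that order. The study gives a larger number of reads per population than these estimates, and the counting intervals below rest on the estimates.

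The libraries differed in more than the genotype. Grk6 itself was 42.7 and 89.4 FPKM in the HSC pair and 26.9 and 57.6 in the CLP pair. It was thus higher in both libraries labelled knockout, and since 1 value per gene does not separate deleted from remaining exons, it does not check the labels. GRK6-/- and WT are therefore used below as the libraries' labels. Ly6a, which encodes Sca-1, had no value in any library. Symbols named in a joint row with another gene were left out, so a symbol with no value may still have a row. Il7r, the gene of Il-7Ra, had no row in WT HSC and 1.08 FPKM in GRK6-/- HSC, and 120 and 75.1 FPKM in the CLP pair. Erythroid markers, 8 of 11 with a value, summed to 343, 1727, 154 and 18126 FPKM in the same order, and 8 of 8 were 2-fold higher in the GRK6-/- library of each population. Of these, Hba-a2 made up 17220 FPKM in GRK6-/- CLP, and Klf1 was 73.3 there. Car2 was 299, 955, 134 and 577 FPKM in the same order, most of the sum in each library but GRK6-/- CLP. The defining markers Hba-a1, Hbb-b1 and Hbb-b2 had no value in any library, with the same limit as for Ly6a. B lineage markers, 7 of 8 with a value, summed to 41.9, 35.5, 239 and 1562 FPKM, and 7 of 7 were 2-fold higher in GRK6-/- CLP than in WT CLP. Lymphoid progenitor markers, 6 of 6 with a value, summed to 168, 118, 2731 and 1910 FPKM, granulocyte and monocyte markers, 10 of 10, to 17848, 11341, 9385 and 7855, stem cell markers, 9 of 10, to 345, 475, 338 and 493, and megakaryocyte markers, 5 of 5, to 123, 6.41, 13.2 and 84.5. Among the stem cell markers, Cd34 was 151 FPKM in WT HSC and 338 in GRK6-/- HSC. The median log2 ratio of the 9 in HSC was -0.62, with 2 of them 2-fold higher and 2 lower, so their sum does not stand for most of them. The part of these differences in the results below was not tested.

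The genes were among the most abundant in every library. Their median percentile among all genes was 97.0 and 97.5 in the HSC pair and 97.1 and 96.9 in the CLP pair. Together they held 26676 and 29213 FPKM in HSC and 24756 and 21992 in CLP, or 4.20%, 4.21%, 3.83% and 3.68% of the summed FPKM of the library. The share was therefore nearly the same in both HSC libraries and lower in both CLP libraries, lowest in GRK6-/- CLP. Complex I summed to 9899, 10214, 9141 and 7743 FPKM, complex III to 2480, 2709, 2079 and 1894, and complex V to 6361, 7250, 6373 and 5225. Complex IV summed to 7261, 8053, 6432 and 6337 FPKM, and complex II, the smallest, to 518, 760, 632 and 628. The complex I sums and the totals hold Ndufs5 in GRK6-/- HSC only, at 129 FPKM. Its coordinates carried another symbol elsewhere, at 167 FPKM in WT HSC and 144 and 116 in the CLP pair, which the sums leave out.

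**Figure D1:**
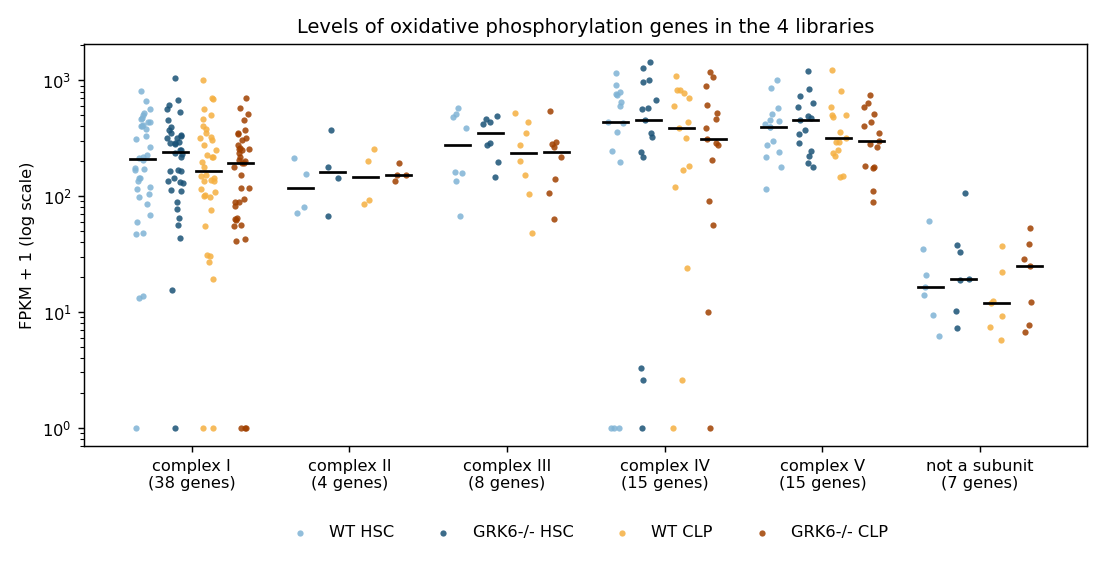
FPKM + 1 on a log axis for each of the 87 genes (1 point per gene), by respiratory complex and library, with the median of each set as a bar. Points at the bottom are genes with no row. In each library most subunits lie above 100 FPKM, and the 7 genes that are not subunits lie lower, at medians of 10.9 to 24.1 FPKM.

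The most abundant genes of the complexes were high in every library. Cox4i1, the ubiquitous isoform of complex IV subunit 4, was the highest gene on average, at 1163 and 1430 FPKM in the HSC pair and 1081 and 1171 in the CLP pair. Cox8a, the ubiquitous subunit 8, was 912, 1280, 828 and 1068. Atp5g3, a gene for the rotating c subunit of complex V, was 1007, 1207, 1226 and 639, with the GRK6-/- CLP value below the other 3. Atp5e, the epsilon subunit of complex V, was 580, 732, 815 and 583 FPKM. Ndufa4, classed with complex I by its symbol and now known as a complex IV partner, was 803, 1055, 1005 and 700 FPKM. Ndufa6, an accessory subunit of complex I, was 663, 609, 688 and 571. Uqcrh and Uqcrq, small subunits of complex III, were 508, 466, 439 and 539 and 578, 489, 350 and 280 FPKM.

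The transcripts are short, which matters for the unit. The median length of the annotated coding transcript was 763 bases over the 87 genes against 2668 over 11957 genes with a length, and 53 of the 87 were under 1000 bases. FPKM of such transcripts depends on the fragment length that the authors' program assumed. The ratios below set the same gene in different libraries side by side, where the transcript length is shared. Fragment lengths of the libraries were not compared, so ratios of short transcripts carry this limit where those lengths differ. The shares among paralogues further on set different genes side by side and carry it as well.

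The first comparison asked how the genes differed between GRK6-/- HSC and WT HSC. Of the 86 genes measured in either library, 55 were above 0 on the log2 ratio, as were 51.8% of all genes. The median was 0.22, against 0.05 over 11624 genes. The 2-fold threshold was passed by 9 genes upward and 5 downward, where 19.3% of all genes were 2-fold higher and 18% 2-fold lower. The 14 of 86, or 16.3%, lay below the 37.4% of all genes past 2-fold either way. Abundant genes pass less often, and at an FPKM of at least 100 in 1 of the libraries the count was 8 of 71 genes, 11.3%, against 28.1% of all such genes. At an FPKM of at least 10 it was 7 upward and 5 downward of 83, against 38.3% either way. The summed FPKM of the library labelled GRK6-/- was itself 0.13 higher on the log2 scale. The 10 highest rows held 18.5% of the sum in WT HSC and 23.0% in GRK6-/- HSC, so the sums depend in part on few genes. Scaled to equal sums, the median of the genes was 0.0965, against -0.05 over all genes. With that scaling 7 genes were 2-fold higher and 7 lower, where 40.7% of all genes were past 2-fold either way.

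By complex, the medians in HSC were 0.17 for complex I, 0.38 for II, 0.24 for III, 0.18 for IV and 0.26 for V. All lay above 0. With rows in both libraries the complex IV median was 0.0427, with 6 of 12 genes above 0. That set leaves out Cox4i2 and Cox6a2, with no row in WT HSC and 2.28 and 1.56 FPKM in GRK6-/- HSC. Within complex I, the 6 core subunits Ndufs1, Ndufs3, Ndufs7, Ndufs8, Ndufv1 and Ndufv2, most of which carry the flavin or iron-sulfur clusters, were 6 of 6 above 0, between 0.22 and 0.91, with none past 2-fold. They remained 6 of 6 above 0 when scaled to equal sums. Of all genes, 51.8% were above 0 before this scaling and 48.2% after it. A further 31 complex I genes, the accessory ones by symbol, had 17 above 0 and a median of 0.07. In FPKM, these core subunits summed to 745 in WT and 1075 in GRK6-/- HSC, and the accessory genes to 9096 and 9027. The accessory sum of WT HSC leaves out 167 FPKM at the coordinates of Ndufs5, which carry another symbol there. The higher value was therefore seen in these core subunits and not in the sum of the accessory genes. Annotated transcripts of these core subunits have 758 to 2661 bases, and accessory ones reach down to 351 in Ndufa3. The part of transcript length in this contrast was not tested.

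Among the core subunits in HSC, Ndufv2, which holds an iron-sulfur cluster of the NADH module, was 166 FPKM in WT and 313 in GRK6-/- HSC. Ndufs1, the largest core subunit, was low at 12.2 and 14.3. In complex II, Sdhb, the iron-sulfur subunit, was 155 FPKM in WT and 373 in GRK6-/- HSC, 2.41-fold higher with an exact 95% counting interval of 2.18 to 2.66. Its partner Sdha, which oxidises succinate, was 70.0 and 66.5, a fold of 0.949 with an interval of 0.851 to 1.06. Subunits of the same complex II thus did not differ alike between these libraries. Such intervals rest on estimated fragments of transcripts of at least 1000 bases and cover counting error only, since PCR copies are not independent molecules, and the spread between cells and mice is not in them.

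In complex III, Uqcrc2, a core protein, was 66.1 FPKM in WT and 144 in GRK6-/- HSC, and Uqcrfs1, the Rieske iron-sulfur protein, was 134 and 286. Uqcrc1, the other core protein, was 162 and 275 and did not reach 2-fold. In complex V, Atp5f1, the b subunit of the stator, was 114 and 371, 3.27-fold higher with an interval of 2.97 to 3.59. Its locus overlaps Wdr77, which was 17.9 FPKM in WT and 57.0 in GRK6-/- HSC, so reads shared by the 2 genes are uncertain. The catalytic subunit Atp5b was 443 and 631, and Atp5a1 was 300 and 345.

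The genes lower in GRK6-/- HSC were small accessory subunits and low genes. Ndufa3 was 436 FPKM in WT and 162 in GRK6-/- HSC. Ndufa5 was 173 and 63.1. Atp5k, the e subunit that helps complex V form dimers, was 457 and 176. Ndufa4l2, a paralogue of Ndufa4 known to be induced by hypoxia, was 12.8 FPKM in WT HSC and had no row in the other 3 libraries. Its locus overlaps Shmt2, which was 80.5, 63.8, 52.6 and 59.8 FPKM. Atp5s, which is not a subunit, was 19.8 and 9.22.

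**Figure D2:**
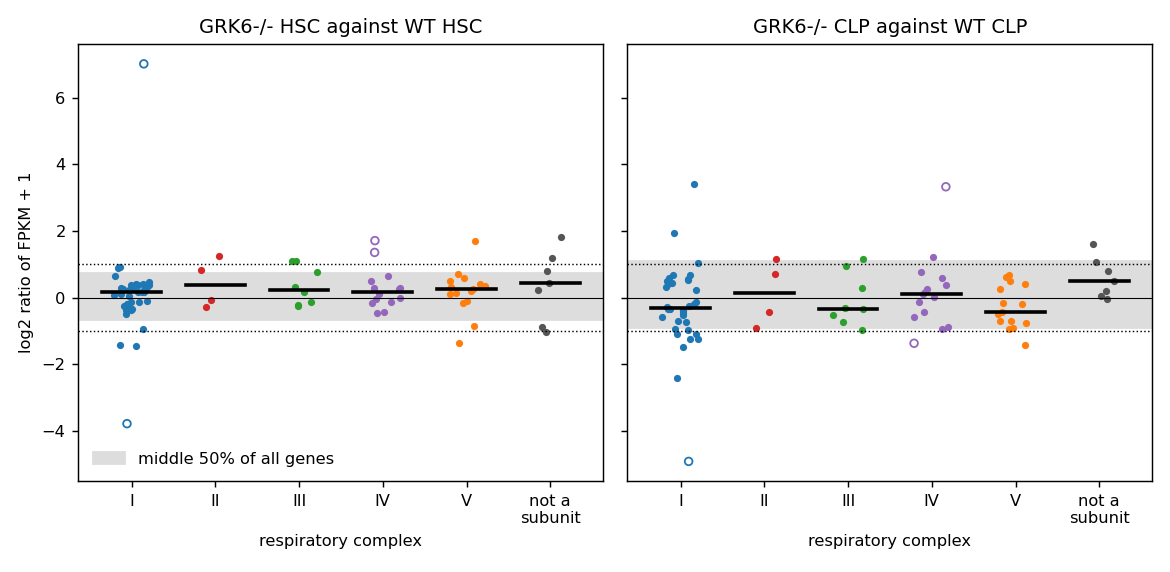
Log2 ratio of FPKM + 1 for each gene (points, coloured by respiratory complex) in GRK6-/- HSC against WT HSC and in GRK6-/- CLP against WT CLP, with set medians as black bars, the middle 50% of all genes as a grey band and dotted lines at 2-fold. Open circles are genes with no row in 1 of the libraries, among them Ndufs5 at 7.02. All 5 complex medians lie above 0 in HSC, and those of complexes I, III and V lie below 0 in CLP.

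Of the 9 genes higher in HSC, 1 comes from naming. Ndufs5, an accessory subunit of complex I, had a row only in GRK6-/- HSC, at 129 FPKM. The same coordinates, mm9 chromosome 4, 123389953 to 123395429, were named BC002163 in the other libraries, at 167 FPKM in WT HSC and 144 and 116 in the CLP pair. Read by coordinates, its log2 ratio in HSC was -0.37, and 8 genes were higher and 5 lower. Cox4i2 and Cox6a2 were also among the 9, each with no row in WT HSC. With rows in both libraries, 6 genes were higher and 4 lower of 82, where 17% of all such genes were higher and 17.7% lower.

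The next comparison was the same in CLP. Of 85 genes, 39 were above 0, as were 51.5% of all genes, and the median was -0.17, against 0.05 over 11191 genes. The 2-fold threshold was passed by 9 genes upward and 9 downward, where 26.6% of all genes were 2-fold higher and 23.4% 2-fold lower. The 18 of 85, or 21.2%, lay below the share of all genes past 2-fold, 5593 of 11191. At an FPKM of at least 10 the count was 8 upward and 8 downward of 81, against 50.7%, and at an FPKM of at least 100 it was 11 of 70, 15.7%, against 35.6%. The median at the last threshold was -0.33, against -0.09 over all such genes. The log2 ratio of the summed FPKM of GRK6-/- CLP to that of WT CLP was -0.11. With equal sums the median of the genes was -0.0580, against 0.14 over all genes. At that scaling 10 genes were 2-fold higher and 7 lower, against 52.8% of all genes either way.

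By complex, the medians in CLP were -0.30 for complex I, 0.15 for II, -0.33 for III, 0.12 for IV and -0.43 for V. The 6 core subunits of complex I had a median of -0.36, with 3 of 6 at least 2-fold lower, 1 of them by having no row, and 3 of 6 above 0. Ndufs8, an iron-sulfur subunit, was 275 FPKM in WT CLP and 116 in GRK6-/- CLP. Ndufv1, which binds NADH and the flavin, was 149 and 62.1.

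The third of these below WT was Ndufs1, at 29.3 FPKM in WT CLP and with no row in GRK6-/- CLP. It was 12.2 and 14.3 in the HSC pair, the lowest of the 6 in each library. Those above 0 were Ndufs3 at 54.7 and 87.3, Ndufs7 at 135 and 201, and Ndufv2 at 177 and 255 FPKM. The values therefore split within 1 complex, with Ndufv1 lower and its module partner Ndufv2 higher. The sum of the 6 was 819 FPKM in WT CLP and 722 in GRK6-/- CLP, and that of the accessory genes 8105 and 6981.

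**Figure D3:**
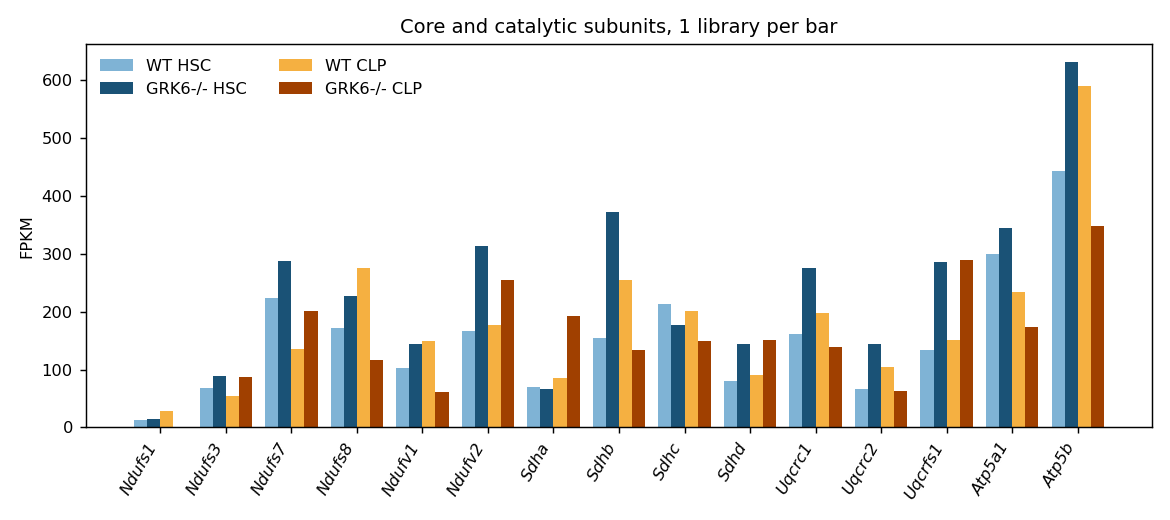
FPKM of the core and catalytic subunits, 1 bar per library, on a linear axis from 0. Each of the 6 core subunits of complex I shown is higher in GRK6-/- HSC than in WT HSC, whereas Ndufs1, Ndufs8 and Ndufv1 are lower in GRK6-/- CLP than in WT CLP.

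Complex II also differed among its subunits in CLP. Sdha was 85.2 FPKM in WT CLP and 193 in GRK6-/- CLP, 2.27-fold higher with a counting interval of 2.10 to 2.45. Sdhb was 254 and 134, a fold of 0.529 with an interval of 0.472 to 0.590. Sdhc, a membrane anchor, was 201 and 150, and Sdhd, the other anchor, was 91.4 and 151. The fold of Sdhb was thus the higher of the pair in HSC and that of Sdha in CLP.

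Among the accessory genes, Ndufa11, which sits in the membrane arm of complex I, was 18.1 FPKM in WT CLP and 202 in GRK6-/- CLP. Its values in WT HSC and GRK6-/- HSC were 45.7 and 54.9, so GRK6-/- CLP was the highest of the 4. Ndufb6 was 97.2 and 373, and Ndufs4 was 26.0 and 54.8. Uqcrb of complex III was 46.6 in WT CLP and 104 in GRK6-/- CLP. Lower were Ndufa8 at 152 and 54.1, Ndufa2 at 560 and 261, and Ndufab1, the mitochondrial acyl carrier protein, at 137 and 63.7.

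The 2 knockout comparisons share no library. Of 84 genes with a value in each, 3 passed 2-fold in both, or 3.57%, against 20.9% of 10398 genes. The only genes 2-fold higher in both were Ndufaf4 and Atp5sl, neither of them a subunit, where 5.66% of all genes were higher in both. In this set 0 were lower in both, against 4.43%. Ndufaf4, an assembly factor of complex I at mm9 chromosome 4, 24825230 to 24832148, was 8.38 and 32.2 FPKM in the HSC pair and 10.9 and 24.1 in the CLP pair. The folds were 3.84 in HSC, with a counting interval of 3.07 to 4.89, and 2.20 in CLP, with an interval of 1.80 to 2.68. Atp5sl, also known as Dmac2 and tied to the assembly of complex I, was 15.4, 36.8, 8.31 and 27.7 FPKM, with folds of 2.39 (1.81 to 3.20) and 3.33 (2.39 to 4.70).

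Only Cox4i2, the lung and hypoxia isoform of subunit 4, passed 2-fold in opposite directions, as 10.8% of all genes did, at 2.28 FPKM in GRK6-/- HSC and 1.59 in WT CLP, with no row in the other two libraries. No library held more than 2.28 FPKM of it. Without regard to size, 23 of 84 genes were higher in both GRK6-/- libraries, 27.4% against 25.9% of all genes, and 15 were lower in both, 17.9% against 24.1%. Higher in HSC and lower in CLP were 31, or 36.9% against 25.2%, and 15 were the reverse, against 24.8%.

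Promoters are shown for the genes 2-fold higher in both knockout comparisons and for Ndufa11, which had the largest fold in CLP among genes with rows in both libraries. RefSeq windows of 300 bases, from 250 before to 50 after the start site (GRCm38.p6), were matched for 72 of the 87 genes. Capitals mark letters searched on both strands. GCGCATGC was used for NRF1. For ETS factors such as GABP the letters were CCGGAAG, and for YY1 they were AAGATGG. The GC box was read as GGGCGG, and the TATA box as TATAAA. The NRF1 letters and their reverse complement overlap within a run such as that in Ndufa11. For Atp5sl the first of 2 listed windows is shown. The windows lie on the plus strand at chr4:24897833-24898132, chr7:25619164-25619463 and chr17:56717512-56717811.
Ndufaf4: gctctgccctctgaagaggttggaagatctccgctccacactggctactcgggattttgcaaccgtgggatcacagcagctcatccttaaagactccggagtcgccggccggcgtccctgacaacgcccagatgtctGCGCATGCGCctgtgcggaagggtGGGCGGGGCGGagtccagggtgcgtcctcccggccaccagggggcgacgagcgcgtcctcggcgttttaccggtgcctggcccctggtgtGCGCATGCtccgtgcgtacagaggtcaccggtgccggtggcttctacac
Atp5sl: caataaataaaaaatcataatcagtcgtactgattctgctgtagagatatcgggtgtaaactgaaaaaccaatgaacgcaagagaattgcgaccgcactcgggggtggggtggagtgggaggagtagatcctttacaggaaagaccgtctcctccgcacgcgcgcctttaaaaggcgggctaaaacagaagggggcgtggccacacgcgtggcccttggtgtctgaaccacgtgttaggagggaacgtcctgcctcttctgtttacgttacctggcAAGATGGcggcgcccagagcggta
Ndufa11: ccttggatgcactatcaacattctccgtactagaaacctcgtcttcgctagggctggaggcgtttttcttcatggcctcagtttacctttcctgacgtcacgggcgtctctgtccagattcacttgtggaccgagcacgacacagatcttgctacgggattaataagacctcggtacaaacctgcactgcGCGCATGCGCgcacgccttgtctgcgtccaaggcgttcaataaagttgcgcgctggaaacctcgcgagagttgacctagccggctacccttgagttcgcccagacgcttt

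NRF1 and GABP are transcription factors known for their sites in promoters of respiratory genes. Shares are of genes with the letters in any of their windows. The NRF1 letters stood in 15.3% of the 72 genes, against 5.85% of 9591 genes with a row in any library and 3.05% of 27025 genes in the table. The ETS/GABP letters stood in 23.6% against 19.8% of genes with a row, and the YY1 letters in 16.7% against 8.32%. GC boxes were rarer, in 44.4% against 67.5%, and TATA letters stood in 6.94% against 8.80%. The median GC content was 58.4% against 60.7%. These are matches of letters and no binding was measured. Nrf1 itself was 2.42 and 20.8 FPKM in the HSC pair and 7.92 and 23.9 in the CLP pair. Gabpa was 4.15, 19.0, 16.3 and 7.94, and Yy1 was 22.6, 36.9, 38.8 and 21.8. The Gabpa locus overlaps that of Atp5j, which was 273, 242, 223 and 295 FPKM, so reads shared by these genes are uncertain.

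WT CLP was also compared with WT HSC, and GRK6-/- CLP with GRK6-/- HSC. Each of these shares its libraries with the knockout comparisons, so the values are set side by side and do not add independent libraries. In WT, 5 genes were 2-fold higher and 13 lower in CLP of 85, where 21.8% of all genes were higher and 24.7% lower, and the median was -0.14 against -0.08. In GRK6-/-, 4 were higher and 20 lower of 86, where 22.3% were higher and 23.4% lower, and the median was -0.50 against -0.08. The 20 include Ndufs5 through its naming, since its coordinates held 129 FPKM in GRK6-/- HSC and 116 in GRK6-/- CLP. At an FPKM of at least 100 the counts were 13 of 69 in WT, against 35.3% of all such genes, and 20 of 73 in GRK6-/-, against 35.3%. Upward of 0 were 36 of 85 genes in WT, against 47.3% of all genes, and 19 of 86 in GRK6-/-, against 47.2%. Scaled to equal sums, the GRK6-/- counts were 6 higher, 12 lower and 29 above 0. Of all genes, 49.2% were then past 2-fold and 52.1% above 0. The WT counts were as before.

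The lower level in GRK6-/- CLP than in GRK6-/- HSC was seen in most complexes. The medians were -0.57 for complex I, -0.09 for II, -0.85 for III, -0.34 for IV and -0.41 for V, against -0.21, 0.24, -0.06, -0.14 and 0.28 in WT. With Ndufs5 read by coordinates, the complex I median in GRK6-/- was -0.51. The complex II median in GRK6-/- turned to 0.13 when scaled to equal sums. Of the 6 core subunits of complex I, 0 were above 0 in GRK6-/- and 4 in WT, against 47.2% and 47.3% of all genes. The sums of the GRK6-/- libraries differed by -0.21 on the log2 scale. Scaled to equal sums, 1 of 6 core subunits was above 0, and the median of the 86 genes was -0.29, against 0.08 over all genes. The difference between the genotypes was not tested.

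The genes 2-fold lower in CLP in both genotypes were Atp5o, Cox6b2, Ndufaf1 and Ndufb4, and Cox6a2 was the only one higher in both. The 4 of 84 lower in both compare with 6.82% of 10493 genes, and the 1 higher in both with 5.98%. Ndufb4, an accessory subunit, was 134 and 109 FPKM in the HSC pair and 30.0 and 41.8 in the CLP pair. Atp5o, which joins the head of complex V to its stator, was 508, 839, 249 and 400. Ndufaf1 was 34.0, 17.9, 6.46 and 6.69. In each of these genes both CLP values lay below both HSC values.

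Tissue isoforms also differed between the populations. Cox6a2, known as the heart and muscle isoform of subunit 6a, had no row in WT HSC and 1.56 FPKM in GRK6-/- HSC, and was 314 and 288 in the CLP pair. The ubiquitous Cox6a1 was 643, 999, 697 and 461. Cox6a2 thus made up 31.1% of the pair in WT CLP and 38.4% in GRK6-/- CLP, and 0.156% in GRK6-/- HSC. Its locus, mm9 chromosome 7, 135348949 to 135349880, overlaps Itgad at the edge, which was 3.72 FPKM in GRK6-/- HSC, and a joint row of Itgax and Itgad at 7.19 in WT CLP. These overlapping rows were far lower than Cox6a2 in WT CLP.

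Cox6b2, known as the testis isoform of subunit 6b, went the other way, at 244 and 216 FPKM in the HSC pair and 23.2 and 55.2 in the CLP pair. It made up 24.8% and 24.5% of its pair in HSC and 2.88% and 5.87% in CLP, while Cox6b1 was 738, 669, 782 and 885 FPKM. Both CLP values of Cox6b2 lay below both HSC values, and the ubiquitous partner was highest in GRK6-/- CLP. Cox7a1, the muscle isoform of subunit 7a, had a row only in GRK6-/- CLP, at 9.05 FPKM. Cox7a2 was 431, 320, 119 and 203, and Cox7a2l, known for its part in supercomplexes, was 426, 457, 385 and 387. Cox8b, Cox8c, Cox7b2 and Atp5l2 had no value in any library.

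**Figure D4:**
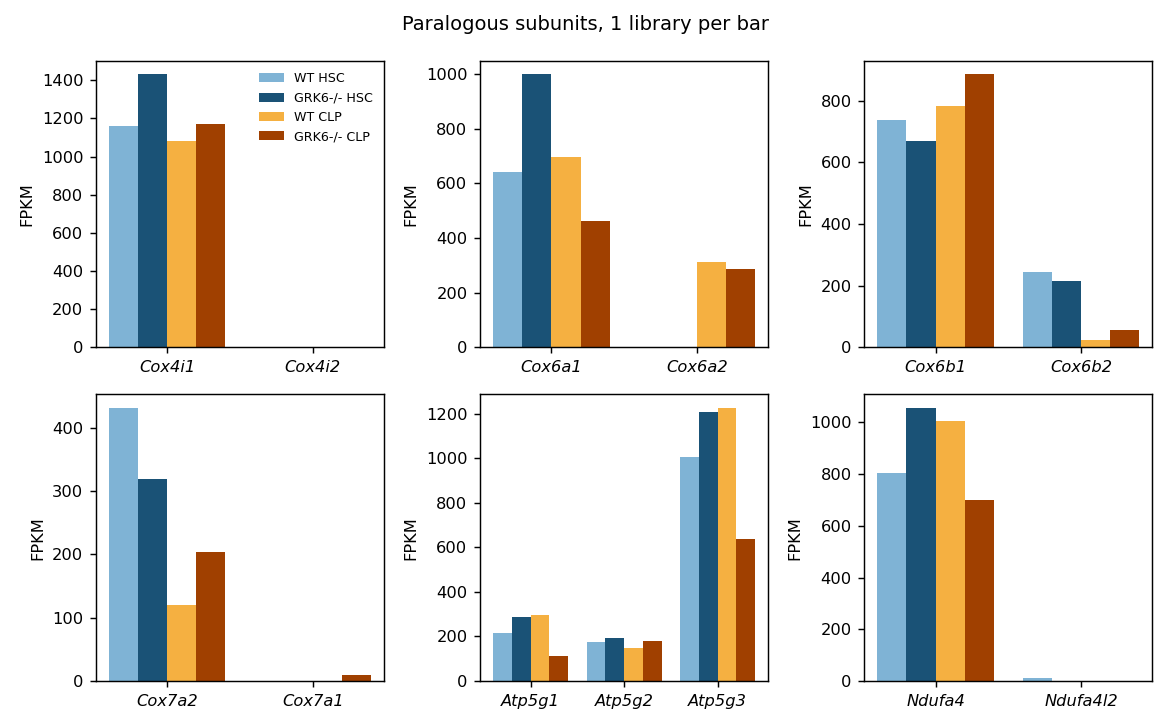
FPKM of paralogous subunits, 1 bar per library, with a linear axis from 0 in each panel. Cox6a2 is seen in the CLP libraries only at this scale, Cox6b2 is higher in both HSC libraries, and Atp5g3 is the main c subunit gene in all 4.

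The c subunit of complex V is encoded by Atp5g1, Atp5g2 and Atp5g3, on mm9 chromosomes 11, 15 and 2. Atp5g1 was 215, 288, 295 and 110 FPKM, Atp5g2 was 177, 192, 147 and 177, and Atp5g3 as given above. Atp5g3 made up 72.0%, 71.6%, 73.5% and 68.9% of the sum of the 3 genes, Atp5g1 15.4%, 17.1%, 17.7% and 11.9%, and Atp5g2 12.6%, 11.4%, 8.81% and 19.2%. The sum was 1398, 1687, 1668 and 926 FPKM. In GRK6-/- CLP Atp5g1 and Atp5g3 were lower than in WT CLP and Atp5g2 was not, so the order of the minor genes was reversed there.

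The 3 genes end in the same 78 residues, so their sequences show whether reads can tell them apart. The 234 coding bases of this stretch are given from the GENCODE annotation of NCBIM37, with capitals at the 63 positions where the genes differ, 55 of them at the last base of a codon. Atp5g1 and Atp5g2 differ at 36 positions, Atp5g1 and Atp5g3 at 50, and Atp5g2 and Atp5g3 at 53. Processed copies elsewhere in the genome were not examined, and for this and other families of respiratory genes reads shared with such copies are uncertain.
Atp5g1: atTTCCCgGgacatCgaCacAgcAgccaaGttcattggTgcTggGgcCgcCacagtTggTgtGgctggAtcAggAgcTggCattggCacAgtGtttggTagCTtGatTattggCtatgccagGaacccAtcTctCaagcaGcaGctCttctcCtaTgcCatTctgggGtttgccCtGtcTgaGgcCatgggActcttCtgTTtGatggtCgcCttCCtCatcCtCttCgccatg
Atp5g2: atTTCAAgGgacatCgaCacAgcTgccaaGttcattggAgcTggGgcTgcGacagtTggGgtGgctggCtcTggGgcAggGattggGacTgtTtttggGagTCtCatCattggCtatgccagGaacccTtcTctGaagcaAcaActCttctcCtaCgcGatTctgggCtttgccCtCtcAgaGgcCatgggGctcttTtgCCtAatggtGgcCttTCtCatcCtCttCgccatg
Atp5g3: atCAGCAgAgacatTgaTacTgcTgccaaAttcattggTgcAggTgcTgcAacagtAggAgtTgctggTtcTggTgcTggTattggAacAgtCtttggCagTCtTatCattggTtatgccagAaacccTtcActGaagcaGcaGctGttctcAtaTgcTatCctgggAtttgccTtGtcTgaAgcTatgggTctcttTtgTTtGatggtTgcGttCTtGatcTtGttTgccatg

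Other genes of the pathway were counted from lists. Electron carriers and regulators outside the pattern had 4 genes 2-fold higher and 1 lower of 16 in HSC, and 4 and 5 of 16 in CLP. Of all genes, 19.3% were higher and 18% lower in HSC, and 26.6% and 23.4% in CLP. Atpif1, the inhibitor of complex V hydrolysis, was 1097 and 3222 FPKM in the HSC pair and 775 and 1721 in the CLP pair, higher in both GRK6-/- libraries than in either WT library. Cyc1, the cytochrome of complex III, was 140, 207, 162 and 128. Cycs, the mobile cytochrome c, was 28.3, 37.6, 26.7 and 28.1. Atpif1 is also known for a role in heme synthesis in erythroid cells, and the erythroid markers given above were higher in the same 2 libraries, whose part in these values was not tested.

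Assembly factors were 2-fold higher in 2 and lower in 6 of 24 in HSC, and higher in 5 and lower in 10 of 24 in CLP, with medians of -0.04 and -0.68. Surf1, which helps build complex IV, was 40.1 and 54.9 FPKM in the HSC pair and 81.9 in WT CLP, with no row in GRK6-/- CLP. Regulators of mitochondrial biogenesis and mitochondrial DNA had 6 higher and 2 lower of 16 in HSC, with a median of 0.59, and 3 higher and 8 lower of 17 in CLP, with a median of -0.95. Pprc1, a coactivator of the PGC-1 family, was 9.80, 70.3, 109 and 12.4 FPKM. Most of these genes lay under 50 FPKM, far below the subunits. Of the genes of the citric acid cycle and pyruvate entry, 0 were higher and 1 lower of 22 in HSC, and 3 were higher and 3 lower of 22 in CLP. The share of all genes past 2-fold, as given above, applies to each of these counts. The subunits encoded by mitochondrial DNA were not analysed here.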

How the data were processed

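RNA-seq libraries of WT and GRK6-/- HSC and CLP were analysed, 1 per group. The authors deposited 1 FPKM value per gene and library, made from 100-bp paired reads with the Tuxedo suite, and TopHat 1.4.0 and mm9 are named in the submitters' notes. FPKM values, without counts, give no test between libraries. Rows of 1 symbol were summed, 333 symbols in joint rows were left out, and a gene with no row was set to 0. Log2 ratios of FPKM + 1 and a 2-fold threshold were applied to all genes. The genes and lists were chosen with earlier results of these data known. Genes named in the text were the 2 highest of each complex, the 4 largest differences each way per population, core subunits, isoform pairs, genes past 2-fold in both populations, the extremes of each list, and Grk6, and any other gene named was chosen after its values were seen. An item that the rule also selects is not reported here, and it stays in the counts, sums and medians over all genes and over each complex. Markers of stem, lymphoid, B lineage, erythroid, granulocyte and monocyte, and megakaryocyte cells were checked. Depth was estimated from low FPKM values (under 0.3) of single-transcript genes, of which 73.8% to 82.5% lay within 10% of 1, 2 or 3 fragments, and the estimate was tested on simulated data. If the depth is larger, counting intervals (exact binomial, 95%) are narrower. Python 3.11.15, pandas 2.3.3 and scipy 1.17.1 were used. Alternatives were pseudocounts of 0.1 and 5, filters, rescaling, the row rule, subunits only and a 4-fold threshold.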

Additional observations from a re-analysis of the deposited data

Results flagged for a closer look

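The median log2 ratio of the genes had opposite signs in the populations, 0.22 for GRK6-/- HSC against WT HSC and -0.17 for GRK6-/- CLP against WT CLP. The gene Cox4i2 passed 2-fold in opposite directions, with log2 ratios of 1.71 in HSC and -1.37 in CLP, and had no row in WT HSC and in GRK6-/- CLP. With 1 library per group, neither difference was tested.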

How the results depend on the processing

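No paired analysis was possible because each group had 1 library, and for the same reason no replicate could be left out. The medians over the genes kept their sign under the alternatives run in all 4 comparisons, as did those over each complex in the 2 knockout comparisons. Between CLP and HSC, the complex II median in GRK6-/- turned from -0.09 to 0.13 with equal summed FPKM, and that of complex III in WT from -0.06 to 0.02 when all genes were centred on a median of 0. Values moved by less than 0.1, or counts by less than 1.5 times, are not given singly. Scaled to equal summed FPKM, the medians over the genes were 0.0965 in HSC, -0.0580 in CLP and -0.29 between the GRK6-/- libraries. Over all genes of the data they were -0.05, 0.14 and 0.08 in that order. The values that follow are again for the respiratory genes. By complex they were 0.0461, 0.26, 0.11, 0.0535 and 0.13 for I to V in HSC, and -0.19, 0.26, -0.22, 0.23 and -0.32 in CLP. For the others between the GRK6-/- libraries they were -0.36 for I, -0.64 for III, -0.13 for IV and -0.19 for V. The complex IV median in HSC was 0.0427 with rows in both libraries and with filters at an FPKM of 1, 10 and 100. At an FPKM of at least 100, which was added after seeing the data, the complex II median in HSC was 0.84, the median over the genes in CLP was -0.33, and 8 genes in HSC and 11 in CLP were past 2-fold. A 4-fold threshold left 2 genes in HSC, 4 in CLP, 5 between the WT libraries and 4 between the GRK6-/- libraries, where 12.4%, 24.8%, 20.5% and 19.1% of all genes passed it. Ndufs5 reversed to -0.37 in HSC when read by coordinates, also added later. Of 840 values of single genes under alternatives, 17 moved by over 1.5 times, of which 14 came with another pseudocount. The causes were not tested. Depth limits the genes under a few FPKM, and the number of cells per library limits all values.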
